A study of Rattus norvegicus with 32 samples.

Results

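The enzymes that degrade branched-chain amino acids and ketone bodies were followed in the left ventricle of septic rats through 10 genes, all of which were measured. The members were found by name: a probe was taken when its gene name in either annotation version of the scanner files was Bcat1, Bcat2, Bckdha, Bckdhb, Dbt, Bckdk, Bdh1, Oxct1, Acat1 or Aacs. These genes were read by 15 probes on 33 spots, out of 36174 gene names in the male files and 45598 probes on 58717 spots that were not controls. Each gene is reported by its brightest probe, taken by the mean of all 32 arrays. Further probes of a gene are given where they differ in call or direction. All 15 probes passed the filter on dim signals in both sexes, so no member was lost.

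Branched-chain amino acids (leucine, isoleucine and valine) are first transaminated, by Bcat1 in the cytosol or by Bcat2 in mitochondria, and the resulting keto acids are then decarboxylated irreversibly by the mitochondrial branched-chain keto acid dehydrogenase complex. Bckdha and Bckdhb encode the E1 subunits of this complex, Dbt its E2 core, and Bckdk the kinase that inhibits it. Ketone bodies are a fuel of the heart: Bdh1 interconverts 3-hydroxybutyrate and acetoacetate, Oxct1 activates acetoacetate with a coenzyme A taken from succinyl-CoA, and Acat1 splits acetoacetyl-CoA into acetyl-CoA, whereas Aacs activates acetoacetate in the cytosol for lipid synthesis.

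Left ventricles of male and female Wistar rats were collected 20 h after the operation, and RNA of each heart was hybridised to a 1-colour Agilent array. In each sex there were 5 arrays of the sham group (operated rats without sepsis), 5 of the CLP group (cecal ligation and puncture, a model of abdominal sepsis from a leak of the gut) and 6 of the CLP plus landiolol group (the same operation followed by an infusion of landiolol, which blocks β1-adrenergic receptors for a short time). Rats that received no landiolol were given saline at a similar infusion volume, buprenorphine was given against pain, and all hearts had been perfused ex vivo before they were frozen. The labels give each array a code of its own and do not say more on how the hearts were sampled, so that p-values measure the spread between these samples. The arrays of a sex lay on 2 slides of their own, so sex and slide cannot be told apart in the levels, which are compared only within a sex. In females all sham arrays lay in row 1 of their slides and all CLP plus landiolol arrays in row 2. Female CLP arrays lay in both rows, as did the arrays of each male group. Row and treatment therefore cannot be told apart between the female sham and CLP plus landiolol groups, and they go together in part in the other female comparisons.

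Arrays of a sex were alike, with Pearson correlations of 0.936 to 0.989 over 120 pairs in males and of 0.930 to 0.986 in females, and no spot was saturated. The 8 cardiomyocyte markers (Myh6, Tnnt2, Tnni3, Actn2, Myl2, Ryr2, Pln and Mb) were well above background on every array, with a mean log2 level of 16.57 to 17.35, and so were the 3 atrial markers. The arrays differed in brightness: the median log2 signal before normalisation was 4.27 to 5.94 on male arrays and 4.73 to 5.80 on female arrays, which touches several members as described below. In a piece of ventricle, less RNA per cell and fewer cells of a type cannot be told apart.

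After CLP, the genes that rose were an aminotransferase and ketone enzymes, and no subunit of the dehydrogenase complex was called. In males, Bcat1, Bdh1 and Aacs were up-regulated, 3 of 10 members at an FDR of 1%, where 7.81% of the 25864 probes tested were called in either direction and 3.87% were called higher. In females, Bdh1 was up-regulated, 1 of 10 members, where 3.63% of the 25394 probes tested were called and 1.82% were called higher. No member was down-regulated by CLP in either sex (called lower were 3.94% of male and 1.82% of female probes). The median log2 change of the 10 members was 0.25 in males and 0.23 in females, against 0.0091 and -0.015 over all probes tested.

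Bcat1, the cytosolic aminotransferase, was 2.36-fold higher in the male CLP group than in the sham group (95% interval 1.76 to 3.17). Its log2 level in male sham hearts was 8.82, 8.71, 8.12, 7.78 and 8.54, and in male CLP hearts it was 9.44, 9.58, 9.42, 9.88 and 9.87. All 5 septic hearts lay above all 5 sham hearts, which was also seen for 12.3% of all probes, and the log2 change was 1.24 (SE 0.20, limma adjusted p = 0.00066). Female sham hearts had log2 levels of 8.45, 8.42, 7.19, 7.92 and 8.58, and female CLP hearts had 8.49, 9.28, 9.14, 9.58 and 9.69. Here a single CLP heart reached into the sham range, and the log2 change of 1.12 (SE 0.34) did not pass the threshold (limma adjusted p = 0.052). Both Bcat1 probes lie on the minus strand of chromosome 4 (rn4 182641553 to 182641612 and 182641524 to 182641583), overlap by 31 bases, were printed on 10 spots each and gave the same calls. On the second probe the female groups did not overlap, by a narrow gap (sham up to 7.86, CLP from 7.89, limma adjusted p = 0.051). The median spot-to-spot SD within an array was 0.076 for the reported probe, well below the SD between hearts of a group, which was 0.22 to 0.67.

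Bdh1, the ketone body dehydrogenase of the inner mitochondrial membrane, was the member called in both sexes. Its log2 level was 9.17, 9.42, 9.58, 9.21 and 9.40 in male sham hearts and 10.35, 9.99, 10.77, 10.94 and 10.16 in male CLP hearts. The groups did not overlap, and the log2 change was 1.09 (SE 0.18, limma adjusted p = 0.00083), a 2.13-fold difference. In females, the log2 level was 9.80, 10.12, 8.84, 9.92 and 9.85 in sham hearts and 10.53, 10.61, 10.73, 11.41 and 10.66 in CLP hearts. Again all CLP hearts lay above all sham hearts, as for 8.32% of all probes, and the log2 change was 1.08 (SE 0.22, limma adjusted p = 0.0057), a 2.12-fold difference. This female call was lost, with the change still at 0.93 to 1.12, when sham replicate 1 or 5 or CLP replicate 3 or 4 was left out (highest adjusted p 0.014). The reported probe lies on chromosome 11 (rn4 71130669 to 71130728, minus strand). A second Bdh1 probe, 927 bases further downstream on the chromosome, gave a log2 difference of 0.90 in males and 0.79 in females and passed in neither (limma adjusted p = 0.099 and 0.12).

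Aacs, the cytosolic acetoacetyl-CoA synthetase, was called in males alone. In males the log2 level was 7.06, 7.37, 7.40, 6.97 and 7.63 in sham hearts and 7.66, 8.10, 7.77, 8.22 and 8.13 in CLP hearts. The groups were apart by a narrow gap, and the log2 change was 0.69 (SE 0.16, limma adjusted p = 0.0085), a 1.61-fold difference. That call lay close to the threshold: it was lost when any of 12 of the 16 male arrays was left out, with a log2 change of 0.61 to 0.78 throughout and an adjusted p of at most 0.027. Female sham hearts had log2 levels of 6.58, 6.89, 6.67, 7.09 and 6.57, and female CLP hearts had 7.75, 6.70, 7.57, 7.26 and 7.77. The female groups overlapped through one CLP heart, and the log2 change of 0.65 (SE 0.22) did not pass (limma adjusted p = 0.075). The second Aacs probe, 415 bases upstream on the chromosome, gave a log2 difference of 0.70 in males (limma adjusted p = 0.022) and of 0.83 in females (limma adjusted p = 0.012), and missed the 1% threshold in both, although the female groups did not overlap on it.

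**Figure D1:**
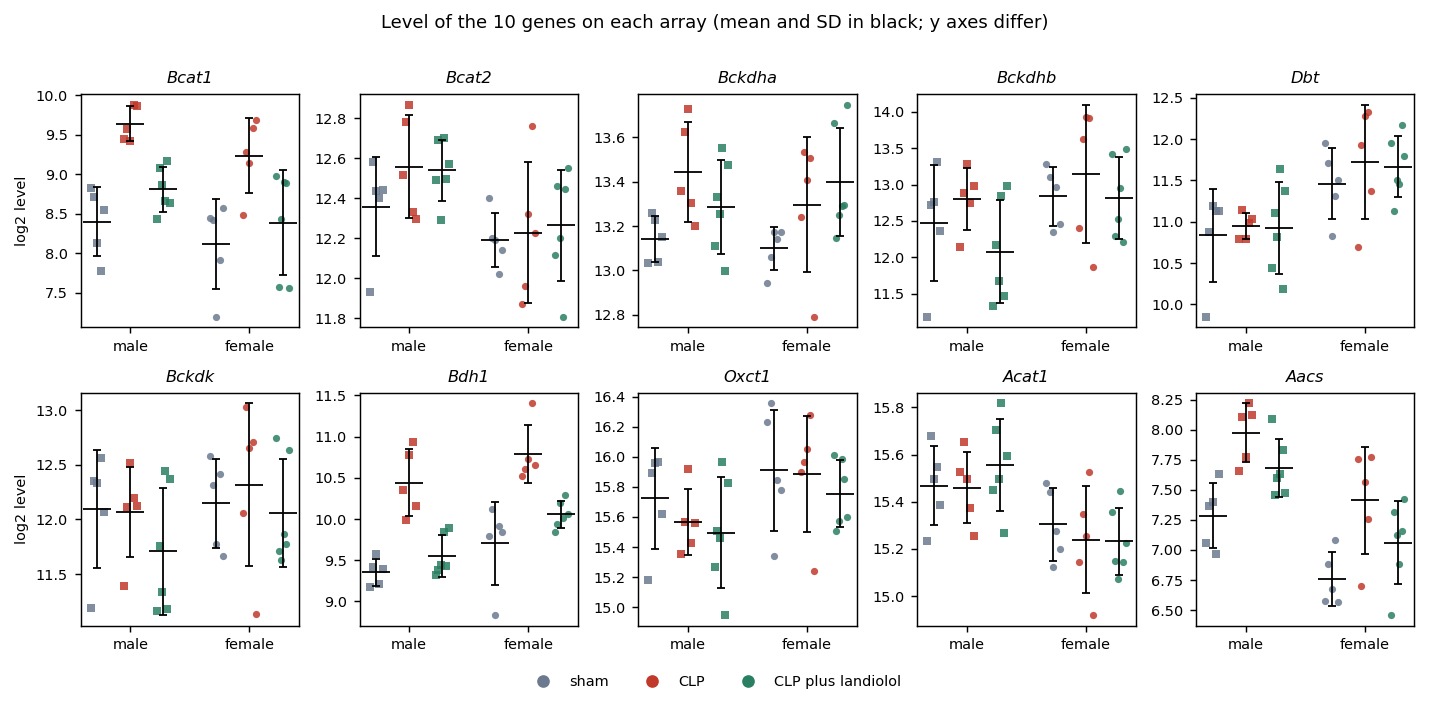
Normalised log2 level (y axis, a different range in each panel) of the 10 genes on each array, squares for males and circles for females, with the mean and SD of each group in black. The male CLP hearts sit above the male sham hearts for Bcat1, Bdh1 and Aacs, and the other 7 panels show overlapping groups in both sexes.

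The 3 genes that rose together in males are shown with the sequence around their transcription start, from 250 bases before it to 50 after it, as RefSeq gives them on build GRCr8. Of the 10 members, 9 had an entry in that table. Bcat1 has entries for a pair of starts, and the files do not say which start the probes follow. Capitals mark any match, on either strand, to 11 motifs that were searched.
Bcat1, upstream start, chr4:179777239-179777538, minus strand: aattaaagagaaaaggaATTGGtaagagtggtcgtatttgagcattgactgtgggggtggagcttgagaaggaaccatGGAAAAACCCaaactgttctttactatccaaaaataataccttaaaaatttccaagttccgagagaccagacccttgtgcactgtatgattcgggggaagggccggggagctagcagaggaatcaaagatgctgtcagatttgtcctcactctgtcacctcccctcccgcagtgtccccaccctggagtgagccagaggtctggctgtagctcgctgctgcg
Bcat1, downstream start, chr4:179744159-179744458, minus strand: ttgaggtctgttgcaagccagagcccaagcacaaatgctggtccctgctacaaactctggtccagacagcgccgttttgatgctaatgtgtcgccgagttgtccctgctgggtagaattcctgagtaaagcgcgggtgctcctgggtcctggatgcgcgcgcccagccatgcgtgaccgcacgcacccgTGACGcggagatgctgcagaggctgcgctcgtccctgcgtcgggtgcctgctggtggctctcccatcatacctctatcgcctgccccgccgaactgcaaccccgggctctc
Bdh1, chr11:82842587-82842886, minus strand: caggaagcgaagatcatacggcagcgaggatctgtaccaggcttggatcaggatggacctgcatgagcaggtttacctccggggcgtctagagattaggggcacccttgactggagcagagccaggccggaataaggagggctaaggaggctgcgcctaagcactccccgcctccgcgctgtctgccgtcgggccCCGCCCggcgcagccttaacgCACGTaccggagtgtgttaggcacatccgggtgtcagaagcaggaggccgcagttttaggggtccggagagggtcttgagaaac
Aacs, chr12:36817725-36818024, minus strand: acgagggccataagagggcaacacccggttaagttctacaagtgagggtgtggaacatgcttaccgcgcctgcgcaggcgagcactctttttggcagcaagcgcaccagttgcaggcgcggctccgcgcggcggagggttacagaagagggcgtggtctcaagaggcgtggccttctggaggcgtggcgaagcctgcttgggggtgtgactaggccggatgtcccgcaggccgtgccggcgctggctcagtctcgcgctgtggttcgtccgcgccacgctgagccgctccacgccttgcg

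No motif was shared by the 3 genes. The upstream Bcat1 start held a κB site (on the opposite strand from position -172), which 5.37% of all 33469 promoters of this length hold, and a CCAAT box (CCAAT, in 37.5%). The downstream Bcat1 start held the short core of the cAMP response element (TGACG, in 21.2%). Bdh1 held a GC box (GGGCGG, in 33.1%) and a hypoxia response element (ACGTG, in 19.3%). Aacs held none of the 11. The other motifs searched had no match in these 3 genes: the full cAMP response element (TGACGTCA, in 1.83% of all promoters, overlapping its short core), the amino acid response element (TGATGNAA, in 3.98%), the AP-1 site (TGANTCA, in 7.33%), the STAT site (TTCNNNGAA, in 8.87%), the E-box (CACGTG, in 6.42%, overlapping the hypoxia motif) and the direct repeat 1 of nuclear receptors (in 0.0538%). Base composition of the promoters ran from 49.3% G and C at the upstream Bcat1 start to 66% for Aacs, with a median of 51.7% over all promoters. A match is a description of these letters and was tied to no measurement of binding.

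The mitochondrial steps of branched-chain amino acid breakdown did not pass the threshold after CLP. Bcat2, the mitochondrial aminotransferase, had a log2 difference of 0.20 in males (95% interval -0.11 to 0.51) and of 0.04 in females (-0.34 to 0.41). Bckdha, the E1 alpha subunit, stood at log2 levels of 13.04 to 13.26 in male sham hearts and of 13.20 to 13.73 in male CLP hearts. Its log2 change of 0.30 (SE 0.13) was past an unadjusted p of 0.05 but not past the adjusted threshold (limma adjusted p = 0.14), and in females it was 0.20 (SE 0.16, limma adjusted p = 0.51). For Bckdhb, the E1 beta subunit, the log2 change was 0.33 in males and 0.31 in females, with wide intervals of -0.49 to 1.16 and -0.52 to 1.14. For Dbt, the E2 core, it was 0.11 (-0.49 to 0.71) and 0.26 (-0.38 to 0.90), and for Bckdk, the inhibitory kinase, -0.03 (-0.69 to 0.63) and 0.17 (-0.54 to 0.87). The intervals were wide for Bckdhb, Dbt and Bckdk, whose upper limits reached 0.63 to 1.16, and narrower for Bcat2 and Bckdha, with upper limits of 0.41 to 0.58.

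The enzymes that oxidise acetoacetate were not called either. Oxct1 had log2 levels of 15.18 to 15.96 in male sham hearts and of 15.36 to 15.92 in male CLP hearts, which overlapped almost fully. Its log2 change was -0.16 in males (95% interval -0.57 to 0.26) and -0.02 in females (-0.47 to 0.43). Acat1, the mitochondrial thiolase, stood at 15.24 to 15.68 in male sham hearts and 15.26 to 15.65 in male CLP hearts. The log2 change was -0.0084 in males (-0.27 to 0.25) and -0.06 in females (-0.35 to 0.22). Thus in both sexes Bdh1 was called while the enzymes that follow it in ketone oxidation were not, although the difference between the genes was not tested. On the reported probes the upper limits for Oxct1 and Acat1 (at most 0.43 and 0.25) lay under the lower limits for Bdh1 (0.71 in males, 0.62 in females), but the second Oxct1 probe had an upper limit of 0.77 in males, and the second Bdh1 probe had a lower limit of 0.15 in both sexes.

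Between the CLP plus landiolol group and the CLP group, 2 of 10 members were called in males at an FDR of 5%, Bcat1 and Bdh1, both lower with landiolol, where 1.56% of the probes tested were called in either direction and 0.754% were called lower. In females 0 of 10 were called by limma, where 0.0945% of the probes tested were called and 0.0433% were called lower. By SAM the count was also 0, but its share over all probes is not given, so that count is not read further. An unadjusted p under 0.05 was reached by 2 female members (Bcat1 and Bdh1), and by 9.34% of the probes tested. The median log2 change of the members was -0.23 in males and -0.20 in females, against -0.0062 and 0.028 over all probes tested. This comparison shares its CLP arrays with the one before it, so a high CLP value raises the first change and lowers the second.

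In males given landiolol, Bcat1 had a lowest level of 8.43, a median of 8.76 and a highest level of 9.17, all below the lowest CLP heart at 9.42, as was seen for 2.26% of probes. The log2 change was -0.83 (SE 0.19, limma adjusted p = 0.041), or 0.56 of the CLP level. Leaving out any 1 of 10 of the 16 male arrays ended this call, with the change at -0.91 to -0.76 and the highest adjusted p at 0.13 (without CLP replicate 4). In females the range was 7.56 to 8.97 (median 8.66) against 8.49 to 9.69 after CLP alone, and the groups overlapped. The female log2 change was close to the male one, at -0.85, but with a larger error (SE 0.33, limma adjusted p = 0.41).

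Bdh1 had a lowest level of 9.32, a median of 9.44 and a highest level of 9.90 in males given landiolol, below every CLP heart, with a log2 change of -0.89 (SE 0.17, limma adjusted p = 0.018), or 0.54 of the CLP level. The call was lost without CLP replicate 3 or without CLP replicate 4, at an adjusted p of 0.061 in both cases. Female hearts of the CLP plus landiolol group ranged from 9.84 to 10.29 (median 10.04), and these too lay below every CLP heart, which held for 1.15% of probes. The female log2 change was -0.73 (SE 0.21) and did not pass (limma adjusted p = 0.22). The second Bdh1 probe gave a log2 difference of -1.35 in males (limma adjusted p = 0.060) and of -0.83 in females (limma adjusted p = 0.35).

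Aacs was read differently by its probes in this comparison. The reported probe ranged from 7.45 to 8.09 (median 7.62) in male CLP plus landiolol hearts, with a log2 difference of -0.30 (SE 0.15, limma adjusted p = 0.40). On the second probe the male range was 5.75 to 6.58 (median 6.41) against 6.38 to 7.26 after CLP alone, with a log2 change of -0.77 (SE 0.19) that passed at a limma adjusted p of 0.049. By that probe Aacs would also count as called, making 3 members in males. In females the changes were -0.35 and -0.57, and neither passed (limma adjusted p = 0.64 and 0.28).

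No other member was called with landiolol in either sex. Bckdhb had the next largest male change, -0.72 on the log2 scale (95% interval -1.52 to 0.07, limma adjusted p = 0.39), and for Bckdk it was -0.36 (-0.99 to 0.27). On their reported probes, Bcat2, Bckdha, Dbt, Oxct1 and Acat1 had log2 differences of -0.16 to 0.10 in males, and in females of -0.13 to 0.10. The second Oxct1 probe had the opposite sign from the reported one, at 0.35 in males (-0.48 to 1.18) and 0.17 in females (-0.37 to 0.71). For Acat1 the 95% interval was -0.15 to 0.35 in males and -0.28 to 0.26 in females, the narrowest among the members of either sex.

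**Figure D2:**
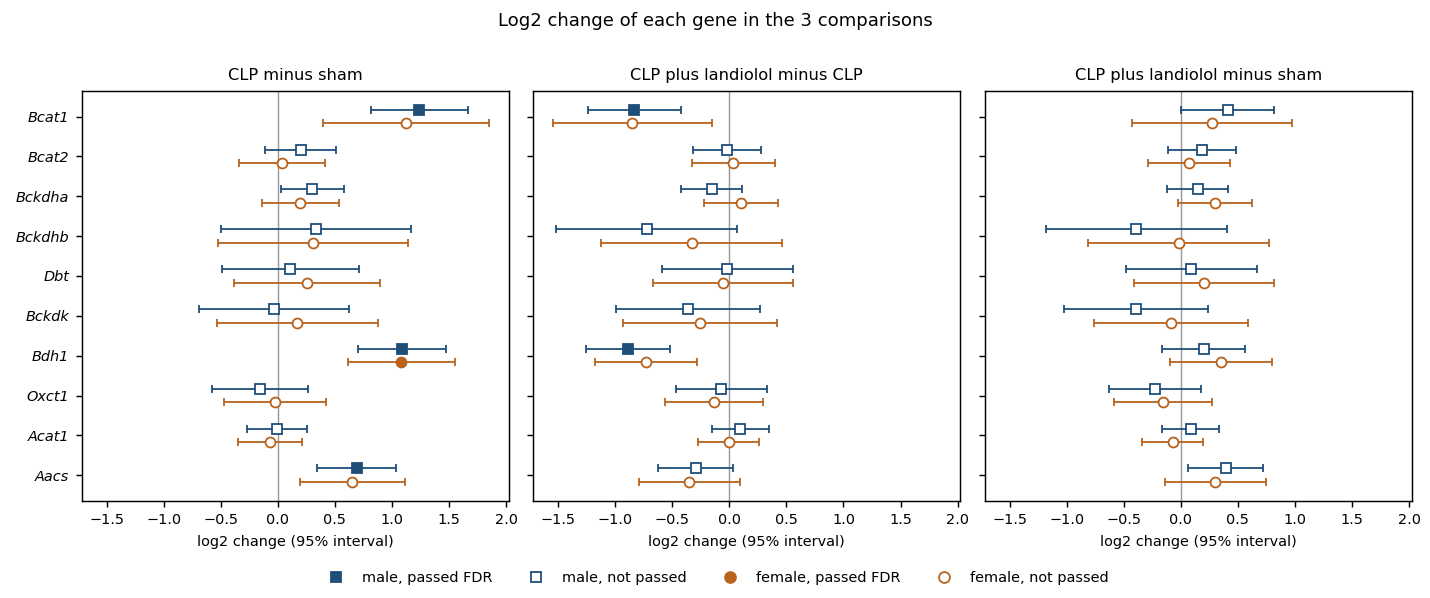
Log2 change with its 95% interval (x axis) of each gene in the 3 comparisons, squares for males and circles for females, filled where the FDR threshold of the comparison was passed. Changes of Bcat1 and Bdh1 lie between 1.08 and 1.24 after CLP and between -0.89 and -0.73 with landiolol in the sexes, and the intervals of Oxct1 and Acat1 include 0 everywhere.

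Against the sham group, 0 of 10 members were called in the CLP plus landiolol group by limma in either sex, where 4.15% of male and 5.25% of female probes were called. Called higher were 2.40% of male and 3% of female probes, and called lower 1.76% and 2.24%. By SAM the count was also 0 in both sexes, without a share over all probes beside it. No member had groups apart from each other, as 7.79% of male and 9.74% of female probes had. Unadjusted p-values were under 0.05 for 2 members in males (Bcat1 and Aacs) and for 0 in females. Over all probes tested, this held for 24.2% in males and 26.7% in females. Bcat1 differed from sham by 0.41 in males (95% interval 0.0031 to 0.82) and by 0.27 in females (-0.42 to 0.97) on the log2 scale. For Bdh1 the difference was 0.20 in males (-0.17 to 0.57) and 0.35 in females (-0.09 to 0.80), and for Aacs it was 0.39 (0.07 to 0.72) and 0.30 (-0.14 to 0.74). The second Bdh1 probe had the opposite sign, at -0.45 in males (-1.16 to 0.27) and -0.04 in females (-0.65 to 0.58). On the second Aacs probe the difference was -0.08 in males (-0.47 to 0.32) and 0.26 in females (-0.13 to 0.64). The direction against sham therefore depends on the probe for Bdh1 in both sexes and for Aacs in males. The comparison shares its arrays with both others and is not independent of them. In females its groups also lay in different rows of the slides, so treatment and row cannot be told apart.

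The sexes were compared by their changes. No member differed between males and females in its change after CLP or with landiolol, at 0 of 10 each by limma, and 0% of the 26490 probes tested were called in either comparison at an FDR of 5%. At an unadjusted p under 0.05 there were 0 members in both, and 995 and 1307 probes. For Bdh1 the male change minus the female change was -0.03 (SE 0.29) after CLP and -0.14 (SE 0.28) with landiolol, and for Bcat1 it was 0.10 (SE 0.41) and 0.04 (SE 0.39). A call in males alone is therefore not shown to be a difference between the sexes.

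The levels of several mitochondrial members moved with the brightness of the array. No share over all probes was computed, so this is not shown to be particular to the members. Other genes also differed between the brightest male array (sham replicate 4) and the dimmest (CLP plus landiolol replicate 5), which differ in treatment too. Mean log2 levels were 11.62 and 10.59 for the pyruvate and oxoglutarate dehydrogenase list, 17.24 and 16.57 for cardiomyocyte markers, and 12.83 and 13.74 for endothelial markers. Over the 16 arrays of a sex, the level of a probe was set against the median log2 signal of its array before normalisation, and 32 relations were computed (15 probes and the pair of Oxct1 probes, in each sex; two-sided permutation tests, p-values adjusted over the 32). Bckdk, whose log2 level ran from 11.16 to 12.56 in males, had an r of 0.77 (adjusted p = 0.0022) and a rho of 0.69 (adjusted p = 0.015), and in females an r of 0.78 (adjusted p = 0.0023) and a rho of 0.74 (adjusted p = 0.010) by permutation. Without the 2 arrays farthest from the median brightness, r was still 0.70 in males and 0.71 in females, and within the slides it ran from 0.69 to 0.95. Bckdhb behaved alike, with r of 0.75 in males and 0.76 in females and rho of 0.63 and 0.71 (permutation, adjusted p for r 0.0025 in both, for rho 0.027 and 0.013), at least 0.63 without the farthest arrays and 0.76 or more within each slide. Acat1 had an r of 0.56 in males and 0.77 in females and a rho of 0.64 and 0.78 (permutation, adjusted p for r 0.054 and 0.0025, for rho 0.027 and 0.0061), at least 0.53 without the farthest arrays and 0.54 to 0.93 within the slides. For Dbt, r was 0.61 in males and 0.55 in females, and rho was 0.55 in both (permutation, adjusted p for r 0.036 and 0.060, for rho 0.063 in both). Its r was at least 0.44 without the farthest arrays and 0.33 to 0.76 within the slides. Reported probes of Bcat1, Bdh1 and Aacs had an r of -0.33 to 0.37, with adjusted permutation p-values of 0.27 or more, although the second Bdh1 probe reached 0.69 in females (rho 0.60, permutation, adjusted p = 0.0081 and 0.038). These pooled values hold the differences between groups too. With the group means taken off, r was -0.57 in males and 0.20 in females for Bcat1 and 0.18 and 0.58 for Bdh1, which was not tested. Within the slides, r for Bcat1 ran from -0.50 to 0.68 and r for Bdh1 from -0.21 to 0.57.

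Oxct1 carried probes that moved in opposite directions. The reported probe lies downstream on chromosome 2 (rn4 53217671 to 53217730, plus strand), and the other lies 28854 bases upstream in the gene (53188817 to 53188876). Their first 30 bases of 60, as the array files list them, are shown because the probes disagree:
Oxct1 downstream probe: tggatatgtcttcacatgcacttgcttatc
Oxct1 upstream probe: gtgcaccgccttataaagggagagaaatat
The downstream probe rose with brightness, with an r of 0.81 in each sex and a rho of 0.73 in males and 0.78 in females (permutation, adjusted p for r 0.0012 in both, for rho 0.010 and 0.0062), at least 0.69 without the 2 farthest arrays and 0.70 to 0.94 within the slides. The upstream probe fell with it, with an r of -0.91 in males and -0.70 in females and a rho of -0.81 and -0.63 (permutation, adjusted p for r 0.00032 and 0.0080, for rho 0.0035 and 0.027), and it was -0.87 and -0.62 without the farthest arrays and -0.94 to -0.67 within the slides. The unadjusted p for r in males, 1e-05, is the smallest that these permutations can give. Set against each other, the probes had an r of -0.86 in males and -0.70 in females and a rho of -0.85 and -0.69 (permutation, adjusted p for r 0.00064 and 0.0081, for rho 0.00096 and 0.015), with r at -0.77 and -0.51 without the farthest arrays, and within the slides r ran from -0.87 to -0.75. In the dimmest array, male CLP plus landiolol replicate 5, the downstream probe stood at 14.95 and the upstream probe at 12.58, their lowest and highest values in males. Neither probe was called in any comparison. Between the CLP plus landiolol and sham groups their log2 differences also had opposite signs. The downstream probe gave -0.23 in males and -0.16 in females, and the upstream probe 0.25 and 0.02.

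With the brightness of the array as a term in the model, an alternative chosen after seeing the data, the same members were called as without it: Bcat1, Bdh1 and Aacs after CLP in males, Bdh1 in females, and Bcat1 and Bdh1 with landiolol in males. The change of Bckdk with landiolol in males went from -0.36 (SE 0.30) to -0.18 (SE 0.21), and that of Bckdhb from -0.72 (SE 0.37) to -0.49 (SE 0.25). Bckdha after CLP in males, at 0.33 (SE 0.12), came to a limma adjusted p of 0.051, against 0.051 to 0.32 over all its alternatives. What sets the brightness of an array was not tested.

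**Figure D3:**
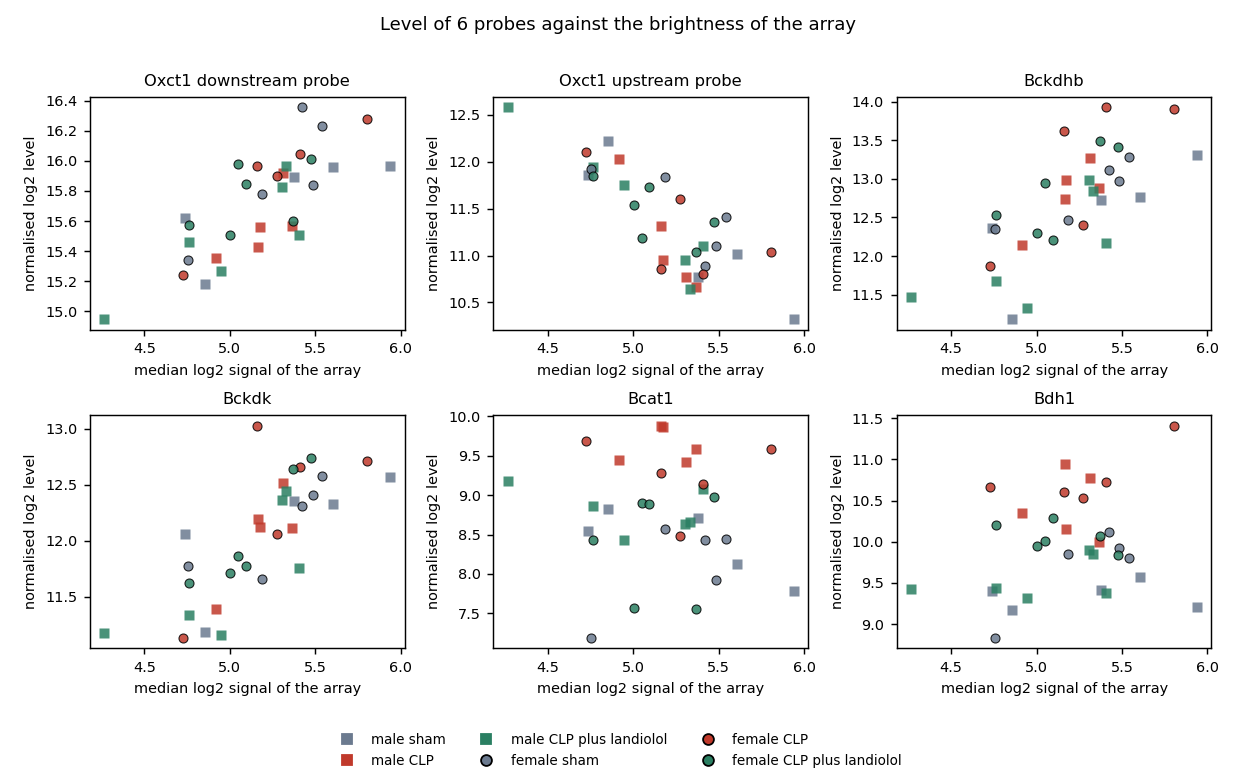
Normalised log2 level of 6 probes (y axis) against the median log2 signal of the array before normalisation (x axis), 1 point per array, squares for males, outlined circles for females, colours for the groups. Oxct1 rises on its downstream probe and falls on its upstream probe with brightness, Bckdhb and Bckdk rise, and Bcat1 and Bdh1 are shown beside them.

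Genes next to the members were followed in 4 lists. Of 8 genes for the supply of branched-chain amino acids and the control of their breakdown, all tested, 2 were up-regulated after CLP in each sex: Slc7a5 and Slc3a2 in males, and Slc7a5 and Slc43a2 in females. Slc7a5 and Slc3a2 form the heterodimer that carries large neutral amino acids such as leucine into cells, and Slc43a2 is another carrier of these amino acids. Slc7a5 rose by 2.47 on the log2 scale in males (SE 0.41, limma adjusted p = 0.00077) and by 1.99 in females (SE 0.44, limma adjusted p = 0.0098), from a mean level of 5.09 and 4.69 in sham hearts to 7.56 and 6.68 in CLP hearts. It was not well above background on 1 of 5 sham arrays in each sex. With landiolol it fell by 1.82 in males (SE 0.39, limma adjusted p = 0.029), the one gene of this list called there, and its change in females was -0.95 (SE 0.42, limma adjusted p = 0.50). Slc3a2 rose by 1.88 in males (SE 0.42, limma adjusted p = 0.0059), and in females the difference was 1.44 (SE 0.44, limma adjusted p = 0.054). Slc43a2 rose by 1.22 in females after CLP (SE 0.26, limma adjusted p = 0.0070), and in the CLP plus landiolol groups it was above sham by 1.06 in males and 1.94 in females, both called (limma adjusted p = 0.0055 and 0.00016). The mitochondrial carrier Slc25a44, the phosphatase Ppm1k that opposes Bckdk, the transcription factor Klf15 and the E3 subunit Dld were not called. The list's median log2 change after CLP was 0.42 in both sexes, against 0.0091 and -0.015 over all probes.

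Downstream of the dehydrogenase complex, 16 of 17 enzymes of leucine, isoleucine and valine breakdown were tested, among them Ivd, Mccc1, Pcca and Hibch, and 0 were called by limma in any of the comparisons in either sex, with list medians of -0.21 to 0.05. Of 12 genes of ketone synthesis and transport, 11 were on the array and 10 were tested. Slc16a7, which carries monocarboxylates such as ketone bodies and lactate, was down-regulated after CLP in males by 1.19 on the log2 scale (log2 change -1.19, SE 0.19, limma adjusted p = 0.00056). Its change in females was -0.70 (SE 0.35, limma adjusted p = 0.25), and with landiolol in males it was 0.71 (SE 0.18, limma adjusted p = 0.061). It was well above background on only 3 of 5 arrays of the CLP group in each sex. No other gene of the list was called in any comparison. Of 14 genes of the related pyruvate and oxoglutarate dehydrogenase complexes, 12 were tested in males and 14 in females. Pdp2, a phosphatase that activates pyruvate dehydrogenase, was lower in the female CLP plus landiolol group than in sham (log2 change -0.81, SE 0.17, limma adjusted p = 0.0057). In males its change there was also -0.81 and did not pass (SE 0.23, limma adjusted p = 0.037), and no other gene of the list was called in any comparison.

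**Figure D4:**
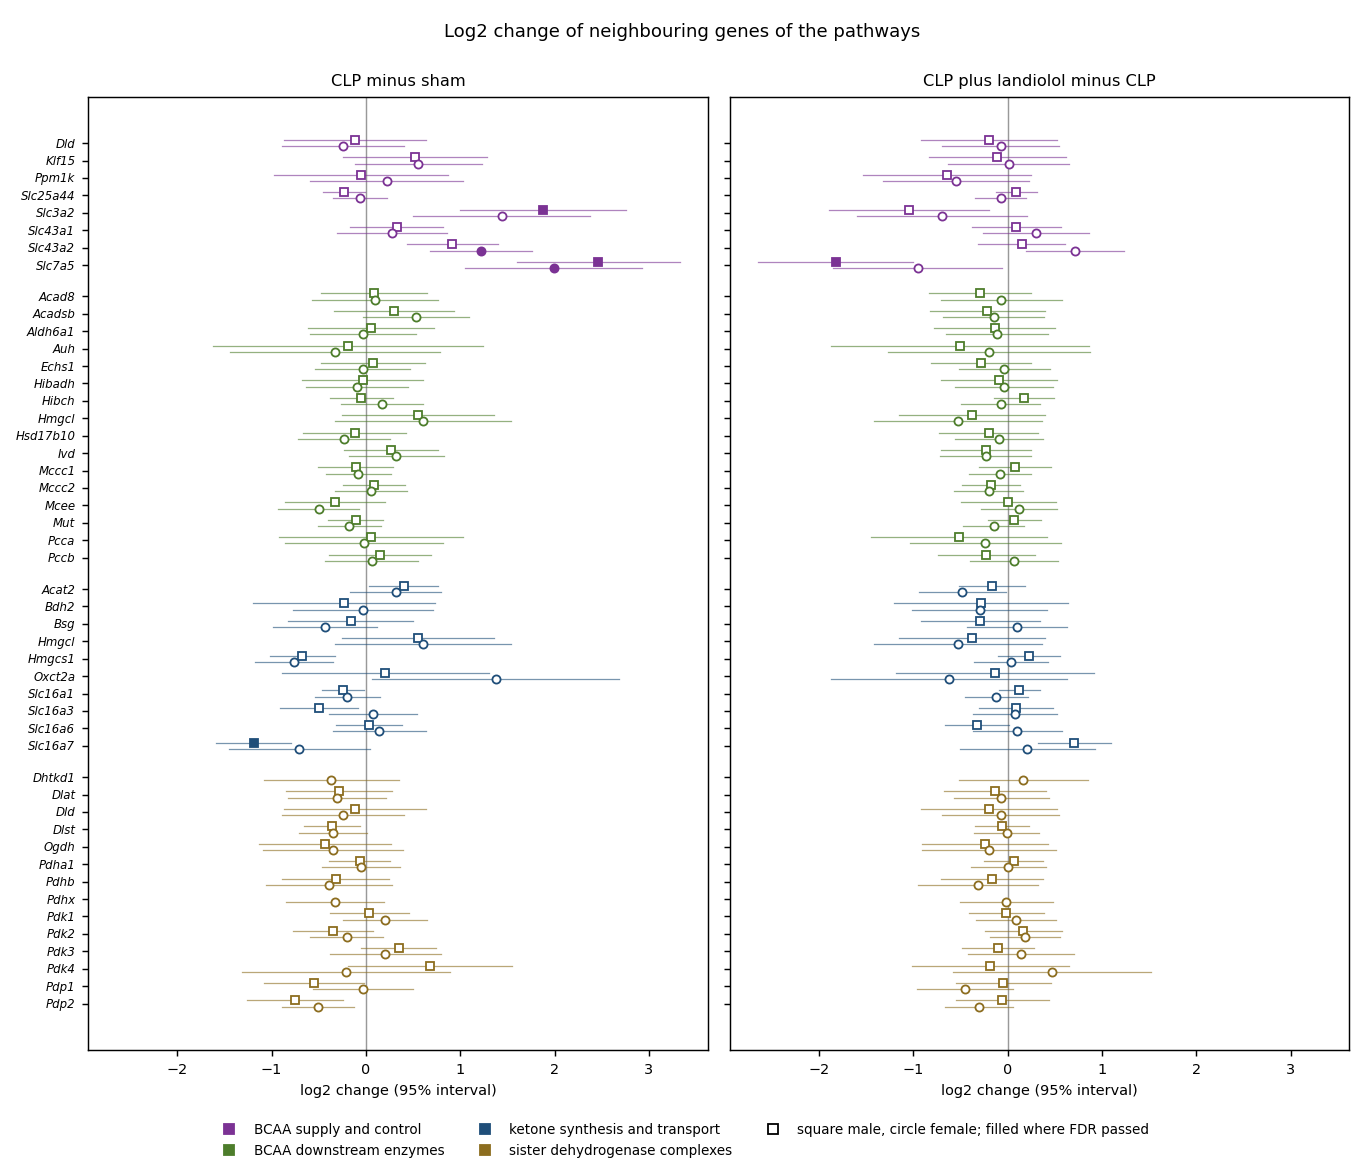
Log2 change with its 95% interval (x axis) of the genes in 4 pathway lists, after CLP (left) and with landiolol (right), squares for males and circles for females, filled where the FDR threshold was passed. The amino acid carriers Slc7a5, Slc3a2 and Slc43a2 stand to the right after CLP, Slc16a7 to the left, and the downstream enzymes lie near 0.

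Markers of other cells moved with sepsis, and their part in the members' changes was not tested. Among 8 macrophage and monocyte markers, 7 were tested and 3 were called higher in both septic groups and both sexes (Adgre1, Cd68 and Lyz2), and the mean log2 level of the 8 went from 8.33 to 8.82 in male sham hearts to 9.03 to 10.21 in male CLP hearts, and from 8.35 to 9.02 to 8.82 to 9.45 in females. Neutrophil markers were mostly at background (Ngp was well above it on 0 of 32 arrays), but S100a8 was called higher after CLP in both sexes and S100a9 in males, and both in the CLP plus landiolol groups. Between the CLP plus landiolol and CLP groups, 0 genes of the macrophage list were called by limma in either sex. Of all probes, 1.56% in males and 0.0945% in females were called there. In the CLP plus landiolol groups the mean level of the list was 8.88 to 9.87 in males and 9.28 to 9.91 in females. Of 6 fibroblast markers, 4 were called lower in males after CLP (Col1a1, Col1a2, Col3a1 and Lum) and 0 in females, with a median log2 change of the list of -1.61 in males and -1.07 in females. Dcn had the opposite sign in both sexes (0.87 in males and 0.77 in females) and was not called (limma adjusted p = 0.047 and 0.075). The mean level of the list was 12.63 to 13.39 in sham and 11.23 to 12.33 in CLP hearts of males, and 12.13 to 12.72 and 10.74 to 12.45 in females. Kdr was the one endothelial marker of 6 called, higher in the female CLP plus landiolol group than in sham. The 8 cardiomyocyte markers, the 3 atrial markers, the lymphocyte markers tested (4 of 8 in males, 3 of 8 in females) and the 1 adipocyte marker of 5 tested were not called, and the adipocyte genes Adipoq and Plin1 were well above background on 0 of 32 arrays.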

How the data were processed

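RNA of 32 left ventricles, 16 per sex, was hybridised to 1-colour Agilent arrays. The deposited scanner files, written by Feature Extraction 10.5, hold an intensity per spot after background subtraction and detrending, mean and background intensities and quality marks. A further table deposited by the authors holds log2 values (quantile-normalised and filtered by them), whose column medians lie between 9.62 and 9.71 and whose offset is unknown. Against the scanner values of its own array, each column had a Spearman correlation of 0.995 or more.

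Here, log2 processed intensities without outlier spots were averaged per probe and quantile-normalised within a sex. A probe was kept if 80% or more of the arrays in any group had it well above background. Groups were compared with limma 3.58.1 in R 4.3.3 (lmFit and eBayes over all 16 arrays of a sex) with Benjamini-Hochberg adjustment over all probes kept, at an FDR of 1% (CLP vs sham, CLP plus landiolol vs sham) or 5% (CLP plus landiolol vs CLP, and the interaction with sex on 32 arrays normalised together). The number of arrays limits the precision. Relations used 100000 permutations. On simulated data with 100 probes of 25835 changed by 1 on the log2 scale, 47% were recovered for CLP vs sham in males, and 30% of 100 among 25316 in females. For CLP plus landiolol vs CLP, 60% and 49% were recovered. A further 100 probes were changed by 2 and all others were left unchanged. Fewer probes were therefore called than in the data (140 against 2020 for CLP vs sham in males), which makes the adjusted threshold stricter in the simulation. Positions are those of the files (rn4), which name no exon or untranslated region, and promoters are RefSeq's (GRCr8). Gene names come from the files.

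Members, gene lists and the naming rule were chosen with earlier results of these data known. All 10 members were named, with, from each pathway list, up to 2 rises and 2 falls among the called genes of a comparison, and the called cell type markers. Slc25a44, Ppm1k, Klf15, Dld, Ivd, Mccc1, Pcca and Hibch were named beside them as genes that were not called. A gene of the ketone list is not reported here and was left out of its counts. Other settings tried were a trended prior, array weights, normexp (offset 50), scaling at the upper quartile, other filters, a fit on just the compared groups, slide or row of the slide as a term, joint normalisation, the authors' table, SAM with 100 permutations, exchanged FDR levels, any probe of a member, leaving out each array, and, added after seeing the data, array brightness as a term.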

Additional observations from a re-analysis of the deposited data

Results flagged for a closer look

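Levels of the 10 members in the 6 groups were searched for a heart far from the others of its group (Dixon's test, 60 groups of values), and 4 were found where chance alone gives about 3. For Dbt, male sham replicate 1 stood at 9.85, with the next heart at 10.88. For Bcat2, the same heart stood at 11.93, with the next at 12.40. For Bdh1, female sham replicate 3 stood at 8.84, with the next heart at 9.80, and female CLP replicate 4 stood at 11.41, with the next at 10.73. Without female sham replicate 3 the Bdh1 call in females was kept, and without CLP replicate 4 it was lost, at a log2 change of 0.93 (limma adjusted p = 0.014, within 0.0020 to 0.049 over the other alternatives).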

How the results depend on the processing

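After CLP, 3 members were called in males and 1 in females, and with landiolol 2 in males. Over the other settings the male count after CLP was 2 to 3. Aacs was called there under 9 of 15 settings, which include an untested mean of its probes (limma adjusted p = 0.0018 to 0.020). The female count after CLP was 0 without a filter on dim probes, with only the 2 groups compared in the fit, and with a term for the row on the slide. The male count with landiolol was 1 under each of these settings (Bdh1, Bcat1 and Bdh1) and 0 at an FDR of 1%. Counts over the fits without 1 array each were 2 to 3 and 0 to 1 after CLP in males and females, and 0 to 2 with landiolol in males. The other counts, 0 for landiolol in females, for CLP plus landiolol against sham and for the sexes, were 0 under every setting and without any array. On their reported probes, Bcat1 and Bdh1 after CLP in males were called under 14 of 15 settings each and without any array. The remaining setting was the mean of a gene's probes, which was not tested. The second Bdh1 probe did not pass in males (limma adjusted p = 0.099). No member's change was both called and reversed. The causes were not tested. No paired analysis was possible because replicate numbers only follow the order of the samples. Array number and brightness limit the smaller changes.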
